A study of Mus musculus and synthetic construct with 15 samples.

Results

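The tiles described here are the candidate enhancers of a reporter pool that lie edge to edge on the mouse genome. In the deposited coordinates, the end of the left tile equals the start of the right tile on the same chromosome. Of the 3820 regions of the pool, 401 met this rule, in 201 adjacent pairs, and 1 tile was shared by 2 pairs in a chain of 3 tiles inside Kdm6b. Both tiles carried the same element identifier in all 201 pairs, so the label of tiles cut from 1 wide element held. Each tile is 400 bp long, and a pair thus covers a continuous stretch. The pool was packaged in AAV9, a serotype of adeno-associated virus that infects heart muscle, and was given to newborn wild-type (WT) mouse pups on postnatal day 0. On day 7 the atria and the ventricles were harvested, and the labels call the cells cardiomyocytes. The 15 libraries formed 3 groups of 5: RNA from atria, RNA from ventricles and DNA of the AAV9 library, and all RNA libraries came from WT mice. No label states whether libraries of a group stem from different animals, so p-values measure only the spread between these libraries, which may be technical. The counts cover only regions of the pool, so the labelled cell type was not checked against marker genes.

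An enhancer is a stretch of DNA that raises transcription from a promoter when transcription factors bind short motifs in it, and these motifs often cluster within part of an accessible region. In a massively parallel reporter assay, each candidate makes RNA in proportion to its activity, and this RNA is set against the amount of the candidate's DNA in the pool. When a wide element is cut into tiles, each tile is read as a separate reporter. The right and left tile of a pair can then be compared for how the activity of the element is divided. In the heart, factors such as Tbx5, Gata4 and the Tead family are known to act through enhancers of chamber genes.

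Total counts ran from 877773 to 2369985 in atrial RNA, from 1271527 to 3781726 in ventricular RNA and from 2312820 to 2958271 in DNA. The tiles of adjacent pairs held 11.7% to 23.6% of the counts of a library. The replicate 1 RNA libraries stood apart: 66 of the 401 tiles had 0 counts in each of them, against 5 to 9 in the other atrial and 1 to 5 in the other ventricular libraries and 64 to 76 in the DNA libraries. A tile at 0 may still hold up to 3 counts, which is 3.42 CPM (counts scaled to a common library total) in the shallowest and 0.793 CPM in the deepest library, a limit that covers counting error alone. Levels below are CPM, and ratios between groups are log2 values fitted with edgeR on the 2601 regions that averaged 10 or more DNA counts. Of the 401 tiles, 272 passed this filter. Both tiles passed in 98 pairs, 1 tile in 77 pairs and neither in 26. The tile just inside the filter (Kank1, mean DNA count 10) had log2 ratios over DNA of 2.44 in atrium and 2.66 in ventricle. The tile just outside it (Drd3, mean DNA count 9.4) had 8.50 ± 7.56 CPM in atrium and 9.92 ± 4.26 CPM in ventricle (SD, n = 5).

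The measure used for a pair is the split, which is the log2 ratio of right over left tile in one group of libraries minus the same ratio in another. It compares tiles within a library, so scaling between libraries cancels. A split above 0 between RNA and DNA means that the right tile made more RNA per DNA than the left, and a split above 0 between chambers means that the right tile leaned more to the atrium. Values of a split and of a ratio are given ± SE. A split or ratio was called at an adjusted p under 0.05 (edgeR quasi-likelihood test, Benjamini-Hochberg over all 1805 consecutive pairs or all 2601 regions).

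Sequence is shown for the 3 elements in which a RefSeq promoter window (GRCm38.p6, the build mm10) runs across the edge between the tiles, so that the stretch on either side of the cut can be read. The RefSeq table was the only source of genome sequence used here. Of the 401 tiles, 13 overlapped 11 of its windows, which run from 250 bases before to 50 after a start. The 3 starts belong to the non-coding genes Gm35546, Gm38675 and Gm32352. Each sequence is written 5′ to 3′ on the strand of that gene, and capitals mark the bases that lie in the right tile.
Gm35546 (chr1:186587072-186587371, + strand): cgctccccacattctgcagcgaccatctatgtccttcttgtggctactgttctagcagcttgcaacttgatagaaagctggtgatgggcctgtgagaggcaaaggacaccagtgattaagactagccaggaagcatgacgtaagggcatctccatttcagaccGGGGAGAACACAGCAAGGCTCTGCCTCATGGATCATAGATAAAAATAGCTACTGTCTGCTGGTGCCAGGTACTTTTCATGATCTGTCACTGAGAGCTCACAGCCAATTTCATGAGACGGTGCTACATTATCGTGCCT
Gm38675 (chr5:144258231-144258530, + strand): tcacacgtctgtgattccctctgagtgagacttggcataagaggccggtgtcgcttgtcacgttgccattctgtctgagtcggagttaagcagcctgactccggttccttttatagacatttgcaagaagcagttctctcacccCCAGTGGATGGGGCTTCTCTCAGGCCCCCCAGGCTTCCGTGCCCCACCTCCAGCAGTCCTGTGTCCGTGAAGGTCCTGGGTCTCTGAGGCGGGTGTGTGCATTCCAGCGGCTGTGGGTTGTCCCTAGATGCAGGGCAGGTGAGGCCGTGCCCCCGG
Gm32352 (chr8:119670584-119670883, - strand): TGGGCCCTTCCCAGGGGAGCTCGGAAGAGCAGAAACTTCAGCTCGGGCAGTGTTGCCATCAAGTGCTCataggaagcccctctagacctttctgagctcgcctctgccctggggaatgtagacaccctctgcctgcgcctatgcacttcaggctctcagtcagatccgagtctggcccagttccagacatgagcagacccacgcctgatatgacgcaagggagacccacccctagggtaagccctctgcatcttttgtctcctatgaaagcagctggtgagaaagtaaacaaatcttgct
The cut left 163 bases of the Gm35546 window in the left tile and 137 in the right. For Gm38675 it was 144 and 156 bases, and for Gm32352 232 and 68 bases. The Gm38675 window had 67.3% G and C in its right part and 50.7% in its left, and the other windows 47.4% and 60.3% right against 50.9% and 54.3% left. Motif letters were searched on both strands. The GATA letters AGATAA occurred 1 time, in the right part of the Gm35546 window, and 11.2% of all 32817 promoter windows hold them. The TEAD letters GGAATG occurred 1 time in the right part of the Gm38675 window and 1 time in the left part of the Gm32352 window, and 14.7% of all windows hold them. The T-box letters AGGTGT (13.7% of all windows) and the ERR letters AAGGTCA (4.72%) were not found in these 3 windows.

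In each of these 3 elements, only 1 of the tiles lay above its DNA in every RNA library. The element with the Gm35546 start lies 35553 bp from Tgfb2, a growth factor of the TGF-beta family. Its right tile (chr1:186587235-186587634) stood at 1134, 922, 979, 1134 and 793 CPM in the 5 atrial libraries and 1711, 1417, 1368, 1194 and 1386 CPM in the 5 ventricular libraries, against 381 to 419 CPM in DNA. The left tile (chr1:186586835-186587234) stood at 39 to 86.1, 49.5 to 88.6 and 54 to 104 CPM in the same order. Every RNA library of the right tile lay above its DNA libraries, while the left tile overlapped with DNA. The split over DNA was 1.38 ± 0.21 in atrium (adjusted p = 6.38e-05) and 1.76 ± 0.23 in ventricle (adjusted p = 1.2e-05), by edgeR. Inside Bri3, at the Gm38675 start, the order was turned. The left tile (chr5:144257975-144258374) had 492, 421, 398, 337 and 336 CPM in atrium and 342, 267, 276, 239.6 and 229.9 in ventricle, all above its DNA (121 to 139). The right tile (chr5:144258375-144258774) had 46 to 148 CPM in atrium and 36.5 to 112 in ventricle, all below its DNA (397 to 442). The splits were -3.89 ± 0.33 and -3.55 ± 0.25. Inside Wfdc1, a secreted protein with a WAP domain, the left tile (chr8:119670416-119670815), with most of the Gm32352 window, had 777 to 914 CPM in DNA. Its RNA was at 137 to 304 CPM in the atrial and 161 to 194 CPM in the ventricular libraries. The right tile (chr8:119670816-119671215) had 384 to 430.0 CPM in DNA, 614 to 870.4 in atrium and 807 to 1088 in ventricle. The splits were 2.88 ± 0.21 and 3.47 ± 0.14. None of the 3 elements had a called split between the chambers, although without atrial replicate 4 the Wfdc1 pair did (-0.77, adjusted p = 0.0187). These 3 pairs were chosen for the sequence they overlap.

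Between the chambers, 18 of the 98 tested pairs had a called split, 12 with the right tile leaning more to the atrium and 6 with it leaning more to the ventricle (backgrounds 10.6% and 11.6%). This share, 18.4%, was near the 22.2% of all consecutive pairs of the pool. The within-library ratios of the 5 atrial and 5 ventricular libraries did not overlap in 13 pairs (13.3%, against 17.0% of all consecutive pairs). The median size of the split was 0.52 (1.44-fold), as over all consecutive pairs (0.53). The called splits had the same sign in the replicate 1 libraries alone in 18 of 18 pairs. Replicate 1 entered these calls, and in the 13 called pairs without overlap its sign was fixed in advance. Without replicate 1, 16 of the 18 stayed called, among 21 called then. The pairs below are ordered by whether 1 tile or both tiles differed between the chambers.

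Near Tbx5, a T-box transcription factor of atrial and conduction cells, the right tile carried the chamber difference. The right tile (chr5:119794240-119794639) had 240.4, 168, 206, 248 and 177 CPM in the atrial libraries. In the ventricular libraries it had 59.8, 53.1, 56.2, 45.5 and 65.8 CPM, and in DNA 12.5 to 17.1. The lowest atrial library was thus above every ventricular one, and all RNA libraries were above DNA. The left tile (chr5:119793840-119794239) had 20.5, 16.3, 10.5, 11.9 and 20.1 CPM in atrium and 19.7, 13.6, 16.4, 13.2 and 15.2 CPM in ventricle. In CPM it overlapped between chambers and also with its DNA (16 to 25.4 CPM). By its fitted ratio over DNA it was called lower in both chambers. This call was lost in several alternatives, such as the replicate block in atrium (-0.74, edgeR, adjusted p = 0.0651). In ventricle it was lost, for example, without DNA replicate 1 (-0.58, adjusted p = 0.0602). The split between chambers was 1.89 ± 0.33, or 3.71-fold (edgeR, adjusted p = 0.0019), and the 5 atrial and 5 ventricular ratios did not overlap. Against DNA the right tile exceeded the left by 4.27 ± 0.34 in atrium and 2.38 ± 0.28 in ventricle.

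The element 10012 bp from Pdzd2, a protein with PDZ domains, had the widest split between chambers of the 98 tested pairs. Its right tile (chr15:12749981-12750380) had 707, 492, 528, 448 and 516 CPM in atrium and 219, 127, 141, 182 and 133 CPM in ventricle, against 77 to 104 CPM in DNA. The left tile (chr15:12749581-12749980) had 689, 718, 588, 1255 and 759.6 CPM in atrium, with replicate 4 the highest, and 1078, 892, 944, 808 and 761 CPM in ventricle. The right tile did not overlap between chambers and the left one did. Without atrial replicate 4 the left tile was called higher in ventricle (-0.38, edgeR, adjusted p = 0.0152). The split was 1.97 ± 0.27 (3.91-fold, adjusted p = 0.000372, edgeR). In ventricle the split over DNA was 0.30 ± 0.14 and was not called (95% interval -0.02 to 0.61), but it was called without ventricular replicate 2 (0.37, adjusted p = 0.0315) or 3 (0.36, adjusted p = 0.0433). In atrium the right tile was 4.8-fold above the left (split 2.26 ± 0.25).

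The chain inside Kdm6b, a histone H3K27 demethylase, gives 3 consecutive readings. Its first tile (chr11:69417253-69417652) had 74.1, 78.6, 87.8, 85.7 and 47.6 CPM in atrium, 145, 110.0, 89.6, 160.2 and 80.0 in ventricle and 29.3 to 51.2 in DNA. The middle tile (chr11:69417653-69418052) had 66.1, 73.3, 34.2, 44 and 66.5 CPM in atrium, 44.8, 53.1, 65.1, 74.3 and 50.9 in ventricle and 113 to 122 in DNA. It was below its DNA in every RNA library. The last tile (chr11:69418053-69418452) had 819, 521, 567, 435 and 704 CPM in atrium, 274, 217, 256, 196 and 279 in ventricle and 25 to 36.3 in DNA. All of its RNA libraries were above DNA, and the lowest atrial library was above the highest ventricular one. From the first to the middle tile the ratio over DNA fell, with splits of -2.02 ± 0.37 in atrium and -2.57 ± 0.27 in ventricle. From the middle to the last tile it rose by 5.39 ± 0.25 and 4.03 ± 0.24, the largest split of the 98 tested pairs in atrium (42-fold, edgeR, adjusted p = 9.94e-10). Between chambers the split of the middle and last tile was 1.35 ± 0.29 (adjusted p = 0.00652). That of the first and middle tile was 0.56 ± 0.40 and was not called (adjusted p = 0.35). The middle tile belongs to both pairs, so these 2 values are not independent. The first tile, not called between chambers in the main fit, was called higher in ventricle in several alternatives. Among them were DESeq2 (-0.63, adjusted p = 0.0346) and the replicate block (-0.62, edgeR, adjusted p = 0.035). Its call above DNA in atrium was lost without the DNA filter (0.44, edgeR, adjusted p = 0.0924) and without atrial replicate 2, 3 or 4 (0.0519 to 0.0628).

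The element at a distance of 9777 bp to Myh7, which encodes slow myosin heavy chain, leaned to the ventricle in both tiles, but unequally. Its right tile (chr14:55004404-55004803) had 177, 168, 221, 169.6 and 177 CPM in atrium and 605, 493, 490.0, 514 and 511 CPM in ventricle. The left tile (chr14:55004004-55004403) was far more abundant, at 2996, 2566, 2433, 2533 and 2417 CPM in atrium and 3806, 3043, 3092, 2938 and 3019 CPM in ventricle. DNA levels were 544 to 647 CPM on the left and 74.1 to 93 on the right. The right tile did not overlap between chambers, and the left did. The log2 ratio of atrium over ventricle was -1.50 ± 0.12 in the right tile and -0.29 ± 0.06 in the left, where the call was lost with scaling on the Neg regions (-0.14, adjusted p = 0.178). The split was -1.23 ± 0.14 (2.34-fold, edgeR, adjusted p = 0.000154). In ventricle the split over DNA was 0.26 ± 0.12 and was not called (adjusted p = 0.0685, 95% interval -0.01 to 0.52). It was called without the replicate 1 RNA libraries, without ventricular replicate 1 and without DNA replicate 3 (lowest adjusted p = 0.0161). In atrium the right tile was 1.95-fold below the left (-0.97 ± 0.15).

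At the element 59519 bp from Itga6, an integrin subunit of laminin receptors, the right tile (chr2:71727368-71727767) had 761, 703, 754, 756 and 705 CPM in atrium and 383, 429, 345, 309 and 408 CPM in ventricle. The left tile (chr2:71726968-71727367) had lower levels, 48.9 to 96.8 CPM in atrium and 59.3 to 107 CPM in ventricle. The right tile did not overlap between chambers and the left did. Relative to DNA no split was called in atrium (-0.04 ± 0.20, 95% interval -0.47 to 0.38), while in ventricle the right tile was 2.5-fold below the left (-1.32 ± 0.22). The split between chambers was 1.28 ± 0.27 (edgeR, adjusted p = 0.00578).

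A left tile carried the difference at the element 4157 bp from Pecr, a peroxisomal enoyl-CoA reductase. The left tile (chr1:72254616-72255015) had 2021, 1626, 1234, 1272 and 969 CPM in atrium and 585, 551, 533, 619 and 434 CPM in ventricle, without overlap. Its ratio over DNA was 0.07 ± 0.14 in atrium and was not called (edgeR, adjusted p = 0.664). In ventricle that ratio was -1.19 ± 0.09 and was called lower (adjusted p = 4.49e-09). The atrial ratio was called higher with scaling on the Neg regions (0.47), with library totals (0.55) and at 50 or more DNA counts (0.34). The right tile (chr1:72255016-72255415) had 38.7, 27.9, 11.8, 18.3 and 17.8 CPM in atrium and 48, 24.8, 13.5, 15.6 and 19 CPM in ventricle, far below its DNA (145 to 169.9 CPM) in both. The split was -1.39 ± 0.33 (edgeR, adjusted p = 0.0104) and was not called without the DNA filter (0.0525). Inside Cdsn, which encodes corneodesmosin, an adhesion protein of the epidermis, the left tile (chr17:35549182-35549581) was also the one that differed. It had 15.9, 26.8, 15.6, 18.3 and 14.3 CPM in atrium and 29.9, 34.9, 35.1, 64.8 and 47.7 CPM in ventricle, without overlap and from a DNA level of only 4.32 to 10.6 CPM. The right tile (chr17:35549582-35549981) ranged from 158 to 277 CPM over the atrial and from 146 to 195 CPM over the ventricular ones, and these ranges overlapped. The split was 1.50 ± 0.30 (adjusted p = 0.00444).

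Inside Col4a2, a collagen chain of basement membranes, the split was 1.41 ± 0.34 (edgeR, adjusted p = 0.0115), yet neither tile was called by itself in the main fit. The right tile was called higher in atrium with DESeq2 (0.49, adjusted p = 0.0441). By edgeR it was also called with scaling on the Neg regions (0.64, adjusted p = 0.017) and without atrial replicate 4 (0.57, 0.0374) or 5 (0.55, 0.0467). The left tile (chr8:11392804-11393203) had 7.97, 4.07, 6.33, 3.21 and 3.44 CPM in atrium and 14.2, 9.78, 8.93, 8.99 and 5.48 CPM in ventricle, and the right tile (chr8:11393204-11393603) 275, 199.6, 314, 166 and 173 and 148, 191, 141, 142 and 177 CPM. Both tiles overlapped between chambers and only their ratio did not, at 5.01, 5.52, 5.58, 5.60 and 5.54 in atrium and 3.35, 4.26, 3.96, 3.96 and 4.97 in ventricle (log2 right over left). The left tile had a mean of 11 DNA counts. With limma on the same ratios the call was lost, at an adjusted p of 0.0797 without and 0.113 with the replicate number as a block.

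In 2 pairs the tiles were called in opposite directions between the chambers. This was 2.04% of the adjacent pairs, against 4.75% of the other 1707 consecutive pairs, and no test was run on these shares. Near Eps8, a regulator of actin filaments, the left tile (chr6:137470854-137471253) had 118, 90.8, 114, 135 and 90.0 CPM in atrium and 185, 174, 195, 113 and 173 CPM in ventricle. The right tile (chr6:137471254-137471653) had 165, 102, 135, 111 and 118 and 71.6, 83.8, 73.2, 116 and 62.6 CPM. The left tile was higher in ventricle (-0.61 ± 0.19) and the right in atrium (0.62 ± 0.21), except in ventricular replicate 4, where both tiles overlapped with atrium. The left call was lost with scaling on the Neg regions (-0.46, adjusted p = 0.0734), without the DNA filter (0.0521), without the replicate 1 libraries (0.0538) and without ventricular replicate 3 (0.0534). The right call was lost without the replicate 1 libraries (0.129) and without atrial replicate 1, 3 or 5 or ventricular replicate 1, 2, 3 or 5 (up to 0.0817). The split was 1.26 ± 0.33 (edgeR, adjusted p = 0.0165), and it was not called by an exact permutation test, without the DNA filter or without the replicate 1 libraries. Inside Nav2, a neuron navigator protein, the left tile (chr7:49088086-49088485) had 144, 162, 201, 179.7 and 103 CPM in atrium and 304, 228, 288, 246 and 219 CPM in ventricle. The right tile (chr7:49088486-49088885) had 261, 219, 206, 239 and 242 and 183, 186, 139.7, 163 and 202 CPM. Neither tile overlapped between chambers. The call of the right tile was lost without the replicate 1 libraries (0.0852) and without atrial replicate 1, 2, 4 or 5 or ventricular replicate 1, 2, 3 or 4 (up to 0.11). The split was 1.15 ± 0.28 (adjusted p = 0.0119) and was not called without the DNA filter. Without the replicate 1 libraries, 0 pairs had tiles called in opposite directions.

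Both tiles of the element 6442 bp from Lmntd1, a lamin tail domain protein, were called higher in ventricle. The left tile (chr6:145456810-145457209) covered 523 to 603 CPM in atrium and 570.4 to 804 CPM in ventricle, and the right tile (chr6:145457210-145457609) 107, 95.4, 55.3, 69.2 and 82.6 and 203, 133, 104, 240.4 and 198 CPM. Each tile overlapped between chambers by 1 ventricular library. The call of the left tile was lost with scaling on the Neg regions (-0.11, adjusted p = 0.45), with RLE size factors (0.0501), without the DNA filter (0.15) and with the replicate block (0.0605). It was also lost without the replicate 1 libraries (0.176) and without atrial replicate 1, 3, 4 or 5 or ventricular replicate 1, 2, 3 or 5 (0.0558 to 0.122). The split of -0.82 ± 0.26 (edgeR, adjusted p = 0.0391) lost its call in 10 of 16 alternatives, among them without atrial replicate 2, 3, 4 or 5 and without ventricular replicate 1, 2, 4 or 5 (adjusted p up to 0.128 over the alternatives run).

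Further called splits fall outside the rule for named pairs, and those given here were named after their values were seen. The right tile leaned more to the ventricle inside Jph2, which encodes junctophilin 2 of the cardiac dyad (-1.12 ± 0.29), inside Hivep3, a zinc finger protein (-0.96 ± 0.28), and 302 bp from Atp6v0a1, a proton pump subunit (-0.79 ± 0.14). It leaned more to the atrium inside Nrap, an anchoring protein of the intercalated disc (0.56 ± 0.17). The same held for a pair 43845 bp from Arhgef37 (0.70 ± 0.15) and for an element on chromosome 4 with no gene within 100 kb (0.72 ± 0.23). Beside Atp6v0a1, the right tile (chr11:101064022-101064421) had 2678, 2723, 2561, 2517 and 2367 CPM in atrium and 4392, 3447, 3652, 3556 and 3736 CPM in ventricle, without overlap. Its left tile (chr11:101063622-101064021) covered 337 to 425 CPM in atrium and 271 to 377 CPM in ventricle. Inside Jph2 the left tile (chr2:163353562-163353961) had 291, 197, 391, 181 and 259 CPM in atrium and 114, 66.4, 171, 112 and 112 CPM in ventricle, also without overlap, and the right tile 92.9 to 157 and 79.3 to 129.8 CPM. The Jph2 split was not called without the DNA filter (adjusted p = 0.0701). The Nrap call was lost in 7 of 17, among them without atrial replicate 2 or 3 and without ventricular replicate 1, 2, 3 or 4 (up to 0.114 over the alternatives run). The Hivep3 call was lost in 8 of 17, among them without atrial replicate 1, 2 or 5 and without ventricular replicate 2, 3 or 4 (up to 0.0977). The chromosome 4 pair lost it in 15 of 16 (up to 0.134), among them the fit with a replicate block (0.113).

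Over all 98 tested pairs, both tiles were higher in atrium in 0 pairs and both higher in ventricle in 2, the Myh7 and Lmntd1 pairs. A tile was called alone in 37 pairs, and neither tile in 57. The split itself was called in 8 of the 18 pairs with a tile higher in atrium alone and in 5 of the 19 with a tile higher in ventricle alone. In the rest the called and the uncalled tile were not shown to differ. Of the 18 called splits, 8 had only the right and 5 only the left tile called. For these counts of pairs with 1 or no tile called, no share over the other consecutive pairs is given here. They describe the adjacent pairs only. Both tiles were called in the same direction in 2.04% of adjacent pairs, against 6.44% of the other 1707 consecutive pairs, a difference for which no test was run. The number with both tiles higher in atrium was 0 with DESeq2 and 1 with scaling on the Neg regions, the Pdik1l pair. The number with both higher in ventricle was 3 with DESeq2, 1 without replicate 1 and 0 with scaling on the Neg regions.

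Counted as single tiles, 71 of the 272 tested tiles differed between chambers, 33 higher in atrium and 38 higher in ventricle (26.1%, against 30.9% of all regions, of which 15.8% higher and 15.1% lower). Scaling on the Neg group, which shifted the median region by 0.15 (log2), gave 48 and 15. The median log2 atrium over ventricle was 0.0072 in the tiles and 0.026 over all regions. Tested tiles whose identifier carries the tag aMTF numbered 117, with 19 called toward the atrium and 14 toward the ventricle. Those tagged vMTF numbered 143, with 14 and 21. Called splits numbered 10 of 42 tested pairs tagged aMTF, 7 of 51 tagged vMTF and 5 of 24 tagged GeneAVB, and a pair can carry more than 1 tag. Over all consecutive pairs 22.2% were called, and no difference between tags was tested.

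Against the DNA of the pool, most pairs were unequal, as were most regions that merely follow each other on a chromosome. In atrium 64 of 98 pairs had a called split, 27 with the right tile higher and 37 with the left (65.3%, against 69.9% of all consecutive pairs, of which 34.1% and 35.8%). In ventricle it was 80 of 98, 34 and 46 (81.6%, against 78.4%, of which 38.0% and 40.4%). The median size of the split was 1.33 (2.51-fold) in atrium and 1.54 (2.91-fold) in ventricle, and 1.42 and 1.55 over all consecutive pairs. Both comparisons use the same DNA libraries. The ratios of the RNA and DNA libraries did not overlap in 56 pairs in atrium (57.1%, against 58.0%) and in 66 in ventricle (67.3%, against 66.6%).

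In atrium 1 tile was above and 1 below its DNA in 26 pairs, and the split was called in all 26. This was 26.5% of the adjacent pairs, against 27.0% of the other consecutive pairs, and in ventricle it was 32.7% against 31.0%. Both tiles were higher in 15, both lower in 20, only 1 tile was called in 33 and neither in 4. In ventricle the counts were 32 opposite, 17 both higher, 21 both lower, 26 with only 1 called and 2 with neither. Both tiles were called in the same direction in 35.7% of adjacent pairs in atrium, against 30.1% of the other consecutive pairs. In ventricle it was 38.8% against 36.0%, and no test was run on these shares. As single tiles, 105 of 272 were higher and 110 lower in atrium (79.0% called, against 74.7% of all regions, of which 38.4% higher and 36.3% lower), and 121 and 108 in ventricle (84.2%, against 81.2%, of which 43.4% and 37.8%). Above and below are meant against the typical region. Library totals in place of TMM factors shifted the median region by 0.48 and 0.37 (log2), and the numbers were then 136 and 64 in atrium and 149 and 81 in ventricle. Scaling on the Neg group gave 130 and 67 in atrium (shift 0.40) and 127 and 95 in ventricle (shift 0.13).

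Inside Pcp4l1, a small protein related to Purkinje cell protein 4, the left tile (chr1:171189035-171189434) had 1391, 1178, 1165, 1122 and 1003 CPM in atrium and 1353, 1288, 1084, 1088 and 1178 CPM in ventricle, against 30.3 to 62.4 CPM in DNA. The right tile (chr1:171189435-171189834) had 79.7, 56.4, 54, 32.1 and 77.4 CPM in atrium, 99.1, 81.7, 89.3, 109 and 64.5 in ventricle and 50.6 to 72.9 in DNA. All RNA libraries of the left tile were above DNA, and the right tile overlapped with its DNA in both chambers. The split was -4.94 ± 0.26 in atrium and -4.36 ± 0.20 in ventricle (edgeR, adjusted p = 3.23e-09 and 2.94e-10). The tiles had a mean of 113 and 168 DNA counts.

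Inside Spata13, a guanine nucleotide exchange factor, the right tile (chr14:60741417-60741816) had 171, 182, 196, 176 and 165 CPM in atrium and 303, 204, 196, 189 and 231 CPM in ventricle, against 11.2 to 12.6 in DNA. The left tile (chr14:60741017-60741416) had 139, 48.3, 53.2, 55.9 and 61.9 and 123, 74.1, 46.4, 85.4 and 85.5 CPM, against 129 to 156. The right tile was above its DNA in every RNA library. The left was below its DNA in ventricle and, except for replicate 1, in atrium. The splits were 5.03 ± 0.33 and 5.07 ± 0.21. Here the right tile had a mean of 30.0 DNA counts and the left 362.

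An element on chromosome 18 with no gene within 100 kb had 885, 993, 975, 971 and 999 CPM in atrium and 1935, 1750.2, 1702, 1823 and 1829 CPM in ventricle in its right tile, against 19.9 to 33.1 in DNA. Its left tile overlapped with DNA in both chambers (43 to 71.8, 41.6 to 105 and 46.3 to 58.5 CPM in atrium, ventricle and DNA). The splits were 4.98 ± 0.21 and 5.54 ± 0.23. At Lmntd1 the split was 4.91 ± 0.26 in atrium and 5.73 ± 0.30 in ventricle, the largest of the 98 tested pairs in ventricle (52.9-fold, edgeR, adjusted p = 1.78e-09). Its left tile had a mean of 3074 DNA counts and its right tile 14.8. At Nav2 the left tile exceeded the right by 23.8-fold in ventricle (-4.57 ± 0.20) and 10.8-fold in atrium (-3.43 ± 0.24), with mean DNA counts of 83.2 and 1348.

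The Sorbs2 pair shows the limit of few counts. Sorbs2 is an adaptor protein of the Z-disc and the intercalated disc. The left tile (chr8:45597877-45598276) had 91.4 to 175 CPM in atrium, 87 to 127 in ventricle and 10.4 to 17.2 in DNA. The right tile (chr8:45598277-45598676) had 1.14, 14, 0.422, 2.29 and 0 CPM in atrium, with replicate 2 far above the rest, and 0.786, 1.4, 2.59, 0.793 and 2.9 in ventricle, against 5.83 to 9.13 in DNA. The split was -4.81 ± 0.85 in atrium and -5.08 ± 0.42 in ventricle (edgeR, adjusted p = 0.000224 and 1.1e-07). Without atrial replicate 2 the atrial split was -6.29, and the right tile, not called with it, was called at -3.21.

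More called splits over DNA had the higher ratio in the tile with less DNA. Of the 64 called splits in atrium, 48 had the higher ratio in the tile with less DNA and 16 in the tile with more. In ventricle it was 61 and 19. Where the tiles differed in DNA by 3 or more on the log2 scale, it was 22 and 1 in atrium and 28 and 1 in ventricle. Where they differed by less than 1, it was 11 and 8 in atrium and 15 and 8 in ventricle. The other consecutive pairs of the pool had the same lean, with 892 and 306 in atrium and 992 and 344 in ventricle. In them it was 392 and 53 and 426 and 60 at a difference of 3 or more, and 157 and 133 and 189 and 140 at one under 1, in atrium and ventricle. The median difference in DNA between the tiles of a pair was 2.29 on the log2 scale, against 2.09 in the other consecutive pairs. The part of this difference in the splits over DNA was not tested. In the 26 pairs with a difference under 1, 19 splits were called in atrium and 23 in ventricle, with median sizes of 1.74 and 1.70. In the other consecutive pairs with such a difference it was 290 and 329 of 435, with median sizes of 1.04 and 1.25. Splits between chambers do not use the DNA libraries. Their median size was 0.45 at a DNA difference under 1, 0.55 from 1 to under 3 and 0.53 at 3 or more. In the other consecutive pairs it was 0.51, 0.53 and 0.54 in the same order.

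Among the splits that were not called, a few had standard errors small enough to bound the difference. At the element 80664 bp from Lbh, a transcription regulator of limb bud and heart, the left tile (chr17:73022211-73022610) had 80.2 to 140.1 CPM in atrium, 100.2 to 124 in ventricle and 88.2 to 129 in DNA. The right tile (chr17:73022611-73023010) had 728 to 999, 930.4 to 1322 and 917 to 1059 CPM in the same order. The split was -0.11 ± 0.17 in atrium (95% interval -0.48 to 0.27), 0.09 ± 0.17 in ventricle (-0.27 to 0.46) and -0.20 ± 0.18 between chambers (-0.59 to 0.19). Inside Stk40, a serine/threonine kinase homologue, both tiles lay below DNA in every RNA library. The left tile (chr4:126110153-126110552) had 90.6 to 248 CPM in atrium, 104 to 162 in ventricle and 340.3 to 419 in DNA, and the right tile (chr4:126110553-126110952) 346 to 563, 333 to 381 and 947 to 1068. Its split was 0.05 ± 0.22 in atrium (-0.42 to 0.51) and -0.02 ± 0.15 in ventricle (-0.33 to 0.30). The element 10662 bp from Rpl29, a ribosomal protein gene, had -0.10 ± 0.27 in atrium (-0.68 to 0.48) and -0.11 ± 0.12 in ventricle (-0.38 to 0.16).

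Other pairs were unequal over DNA but had no called split between chambers. Inside Stard10, a lipid transfer protein, the left tile (chr7:101344437-101344836) had 314 to 423 CPM in atrium and 384 to 539.5 CPM in ventricle, and the right tile (chr7:101344837-101345236) 289.5 to 361 and 319 to 468 CPM. DNA was 322 to 475 CPM on the left and 753 to 813 on the right. The splits over DNA were -1.19 ± 0.16 in atrium and -1.14 ± 0.14 in ventricle, both called, while that between chambers was -0.05 ± 0.16 (95% interval -0.41 to 0.30). Inside Llgl2, a cell polarity protein, the splits over DNA were -0.73 ± 0.14 and -0.79 ± 0.12, and that between chambers was 0.06 ± 0.16 (-0.30 to 0.41).

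Across pairs, the correlations between the ratios of the left and right tiles were small. Pearson's r between the fitted log2 ratios of the tiles was 0.06 over DNA in atrium, 0.13 in ventricle and 0.09 between chambers (Spearman's rho 0.07, 0.09 and 0.06), over 98 pairs whose values come from the same libraries. Over the 1707 consecutive pairs that are not adjacent, r was 0.04, 0.07 and 0.06. By distance it was 0.09, 0.11 and 0.27 in 18 overlapping pairs and 0.04, 0.32 and 0.20 in 25 pairs with a gap of up to 1000 bp. It was 0.14, 0.12 and 0.17 in 206 pairs with a gap of up to 10000 bp, 0.07, 0.09 and 0.04 in 501 of up to 100000 bp, and -0.02, 0.02 and 0.04 in 957 beyond that. In pairs where both tiles had a mean of at least 50 DNA counts, the atrial value was -0.063. These values describe the pool and have no test. Just outside the rule lay 4 pairs of separate elements, with an overlap of 9 bp or gaps of 22, 28 and 37 bp, and 3 of them had both tiles tested. Their splits between chambers were 0.28, 0.43 and -0.02, and the pair with the overlap had ratios over DNA of 1.28 and -0.94 in atrium and 1.60 and -0.93 in ventricle, left and right.

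A column of the deposited table places each region in a group such as MTF or P300, TF1-2 or TF3-4. Both tiles had the same group in 159 of the 201 pairs and different groups in 42. Among tested pairs, 14 had 1 tile in MTF or P300 (or in spMTF or spP300) and the other in TF1-2 or TF3-4. In atrium the tile named for MTF or P300 had the higher ratio over DNA in 6 of them, the lower in 5 and no called difference in 3. In ventricle it was 5, 5 and 4. The median split toward that tile was 0.29 in atrium and 0.14 in ventricle. The Pdzd2, Kdm6b and Eps8 pairs are examples: the tile in MTF or P300 was the more active one over DNA near Pdzd2 in atrium and the less active one inside Kdm6b and near Eps8.

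Of the 201 pairs, 189 had a protein-coding gene within 100 kb and 108 lay inside one. From lists of chamber genes, pairs lay nearest to 3 of 17 atrial genes (Tbx5, Stard10 and Kcnj5), 2 of 14 ventricular genes (Myh7 and Lbh) and 2 of 14 genes of both chambers (Slc8a1 and Mef2a). Of the 5 pairs near atrial or ventricular genes, those of Tbx5 and Myh7 had a called split between chambers. The pair near Kcnj5, a subunit of the atrial acetylcholine-activated potassium channel, had -0.10 (adjusted p = 0.815, edgeR). Slc8a1, the sodium-calcium exchanger, and Mef2a, a transcription factor of muscle genes, had pairs below the DNA filter.

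In the 77 pairs with 1 and the 26 with no tile above the DNA filter, no split was tested. Their tiles could be extremely unequal in the pool. Inside Tex14, a protein of germ cell bridges, the left tile of 1 element (chr11:87448269-87448668) had 111697, 125808, 134894, 122385 and 120698 CPM in DNA and the right tile (chr11:87448669-87449068) 0, 0.407, 0.432, 0.832 and 0.781 CPM. In atrium the left tile had 48656 to 79478 CPM and the right 0 to 1.72, and in ventricle 29166 to 52155 and 0.288 to 0.786. A second element inside Tex14 (chr11:87470970-87471369 and chr11:87471370-87471769) had 22442 to 27523 CPM in DNA on the left and 0 to 0.416 on the right. Its right tile had 0, 19.8, 25.7, 27.5 and 22.4 CPM in atrium and 0, 22.4, 15.8, 17.5 and 34.8 CPM in ventricle, and in both chambers replicate 1 was at 0. In the element 8477 bp from Mab21l3 the right tile (chr3:101804600-101804999) had 0 counts in all DNA libraries, 0, 112, 117, 85.7 and 108 CPM in atrium and 0, 101, 81.2, 126 and 127 CPM in ventricle. Its left tile (chr3:101804200-101804599) had 2744 to 3223 CPM in DNA and counts in every RNA library.

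The Mab21l3 tile was 1 of 48 tiles, in 42 pairs, that no DNA library counted. At the depth of these libraries, 3 counts are 1.01 to 1.30 CPM. Of these 48, 33 had more than 3 counts in each of atrial replicates 2 to 5, and 36 in each of ventricular replicates 2 to 5. In replicate 1 it was 3 in atrium and 1 in ventricle. The 48 tiles held 0.0034% and 0.00094% of the counts of atrial and ventricular replicate 1, and 0.510% to 0.671% of those of the other RNA libraries. The part of this gap between the DNA libraries and RNA replicates 2 to 5 in the splits over DNA was not tested. In replicate 1 alone, 62 of the 64 called splits in atrium and 76 of the 80 in ventricle had the same sign, with the DNA libraries in common. Replicate 1 entered these calls, and where ratios did not overlap (56 and 65 of the called splits) its sign was fixed in advance. Without replicate 1, 67 and 80 splits were called, with 64 and 78 of the main calls among them.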

How the data were processed

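The authors deposited raw counts for every region in each of 15 libraries, with no normalization. Per the labels' protocols, RNA and DNA were copied with a UMI-carrying primer and amplified. The sources used here do not state whether reads or UMIs were counted, so intervals and floors cover counting error only. Bowtie2 2.3.4.3, cutadapt 2.5 and the build mm10 are listed in the submitters' processing notes. Coordinates are given from 1.

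All 2601 regions whose DNA counts averaged 10 or more were fitted with edgeR 4.0.16 (R 4.3.3; TMM, robust quasi-likelihood) per comparison, and adjusted over all regions. Splits were fitted with edgeR on the 1805 consecutive pairs, with columns for the left and right region, each library as a block and the tile by group interaction as the test. SEs come from the fold change and F. Within-library ratios used a pseudocount of 0.5.

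Named pairs were the 6 largest non-overlapping called splits per comparison, the 3 uncalled with the smallest SE, pairs with both tiles called between chambers, the 3 untested pairs with most counts and the chain. One of the called splits between chambers is not reported here. The members and lists were chosen with earlier results of these data known. In simulated data, 80.3% of 4-fold, 14.9% of 2-fold and 1.49% of 1.5-fold splits between chambers were recovered. Over DNA the values were 87.9%, 46.3% and 10.4% in atrium and 90.9%, 43.3% and 11.9% in ventricle. The simulation changed 200 of 1805 pairs, fewer than were called in any comparison of the data, and no replicate in it stood apart. These shares need not hold for the data. No replicates agreed within sampling noise (lowest chi-square per degree of freedom 1.79 in DNA, 12.7 in ventricle and 17.7 in atrium).

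Deviations of same-numbered atrial and ventricular libraries from their group means correlated at 0.187 to 0.799 for within-library ratios, above 0.1 for all 5 numbers. The highest value was that of replicate 1, which stood apart in both chambers and enters both group means. This alone can raise the values of the other numbers (0.187 to 0.235), and libraries of different number were not compared. Pairing of the chambers was thus not shown for the other numbers. For RNA and DNA the values were -0.03 to 0.05. Alternatives were other scalings, DESeq2 1.42.0, limma 3.58.1 on ratios, exact permutation, other filters, a replicate block, omission of single libraries or of the replicate 1 RNA libraries, and gaps of up to 50 bp.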

Additional observations from a re-analysis of the deposited data

Results flagged for a closer look

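In 18 pairs the right over left ratio of the tiles differed between chambers by the edgeR interaction test. For the pairs named above, the difference on the log2 scale, atrium minus ventricle, was 1.97 near Pdzd2, 1.89 near Tbx5, 1.50 inside Cdsn, 1.41 inside Col4a2, 1.35 inside Kdm6b, 1.28 near Itga6, 1.26 near Eps8 and 1.15 inside Nav2. It was 0.72 in the chromosome 4 element with no gene within 100 kb, 0.70 near Arhgef37 and 0.56 inside Nrap. It was -1.39 near Pecr, -1.23 near Myh7, -1.12 inside Jph2, -0.96 inside Hivep3, -0.82 near Lmntd1 and -0.79 near Atp6v0a1.

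In 3 of the 93 groups of 5 ratios tested in named pairs, 1 library lay far from the other 4, where chance flags about 1 in 20. In the Eps8 pair, ventricular replicate 4 had a log2 right over left ratio of 0.033, and the others -1.47 to -1.05. In the Col4a2 pair, atrial replicate 1 had 5.01, and the others 5.52 to 5.60. In the Jph2 pair, DNA replicate 3 had -1.32, and the others -1.51 to -1.48.

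Among the 48 tiles with 0 counts in all DNA libraries, which no test used, 33 had more than 3 counts in each of atrial replicates 2 to 5 and 36 in each of ventricular replicates 2 to 5.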

How the results depend on the processing

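Without a DNA filter, in which all 201 pairs were fitted, the called splits were 124 over DNA in atrium, 140 in ventricle and 11 between chambers, with 63, 75 and 9 of the main calls among them. With at least 50 DNA counts in both tiles, which left 64 pairs, 52 were called over DNA in ventricle, and the correlation of the tiles over DNA in atrium was -0.063 in place of 0.061. With the replicate number as a block in limma, 26 splits between chambers were called, against 20 in limma without it and 18 in edgeR, and the calls of Col4a2 and of the chromosome 4 element were lost in limma both without the block (adjusted p = 0.0797 and 0.103) and with it (0.113 for both). No other call among the named splits between chambers differed between edgeR and limma with the block. Over DNA, where same-numbered libraries showed little correlation, the block gave 63 calls in atrium and 75 in ventricle. Leaving out each library in turn gave 63 to 67 splits over DNA in atrium, 74 to 80 in ventricle and 14 to 21 between chambers. For single tiles the ranges were 198 to 219, 219 to 234 and 58 to 75. The limma fits, the exact permutation test (61, 73 and 13 calls), the wider definition of adjacent and the omission of the replicate 1 RNA libraries stayed within 1.5 times the main count of each split.

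The ratio over DNA of some tiles turned from below to above 0 with other scaling. With library totals it was 0.082 in atrium for the right and 0.093 in ventricle for the left tile of the Rpl29 pair, 0.20 and 0.11 for the left Llgl2 tile and 0.45 in atrium for the left Pdzd2 tile. It was 0.014 and 0.29 for the left Stard10 tile, 0.029 in atrium for the left Lbh tile and 0.24 in ventricle for the right Lbh tile. With scaling on the Neg regions it was 0.12 for the left Llgl2 and 0.0016 for the right Rpl29 tile, both in atrium. No split of a named pair that was called changed sign in the alternatives run. Depth limits the splits: 129 of the 401 tiles had a mean of under 10 DNA counts and were not tested.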
